A study of Mus musculus with 6 samples.

Results

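The nuclear pore and nuclear transport genes described here are 54 members of 17144 genes listed in the count tables. They were chosen by symbol, though with earlier results of these data known. They comprise 28 nucleoporins, 16 importins, 7 exportins and 3 genes of the Ran cycle. All 54 were listed in every library, and all 54 passed the filter on low counts. NUP210 passed it only through its counts in D. Its counts in C were 3, 1 and 5, so it had to differ, and its call supports nothing.

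Messenger RNA was counted in 6 libraries. Their cells carry the label SaOS2, the name of an established human line from an osteosarcoma. The sample titles carry the letters D and C, with 3 libraries each. The series title concerns a compound named DDTC(I), but no label says which letter received it, at what dose or for how long, so differences stand as D minus C throughout. Nothing in the labels tells whether replicates came from separate cultures. The p-values therefore measure only the spread between these 6 libraries, and that spread may be technical.

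Nuclear pore complexes are ring-shaped channels through the nuclear envelope, built from many copies of nucleoporins. Scaffold nucleoporins form outer and inner rings, and nucleoporins rich in phenylalanine and glycine line the passage. Importins and exportins carry proteins and RNAs through it, and the small GTPase RAN sets their direction, since its GTP-bound form is abundant in the nucleus and releases import cargo there while it loads export cargo.

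Library totals lay between 18446443 and 19802340 counts in D and between 18532763 and 20602771 in C. The 54 genes held 0.713% to 0.916% of the counts in D and 0.863% to 0.937% in C. The labels name mouse as the organism, but the symbols are written in the human style, and 0 of the 54 members match a mouse symbol letter for letter. The osteoblast markers were divided and did not bear out the label of the cells as a set. The osteoblast genes SP7, BGLAP and IBSP had at most 3 counts in every library, and the alkaline phosphatase gene ALPL had 9, 15 and 12 counts in D and 13, 12 and 8 in C. Other osteoblast genes had more, with 927, 947 and 848 counts in D and 4033, 3337 and 3533 in C for COL1A2. RUNX2 had 154, 217 and 131 counts in D and 422, 401 and 395 in C. COL1A1 had 99, 85 and 86 in D and 475, 486 and 486 in C. The cells are therefore named by their label only. Summed over each marker list, normalized CPM (counts scaled by library total and TMM factor) was 707 to 797 in D and 1987 to 2346 in C for 9 osteoblast markers. It was 125 to 159 in D and 80.8 to 90.0 in C for 6 epithelial markers, 475 to 520 in D and 494 to 516 in C for 6 macrophage and blood markers, and 12.1 to 14.0 in D and 18.1 to 23.3 in C for 4 endothelial markers. A single gene carried most of the osteoblast sum (SPARC), the macrophage and blood sum (CD68) and the endothelial sum (PECAM1). Several genes shared the epithelial sum. SPARC had a mean of 681 CPM in D and 1912 in C, while SPP1, also an osteoblast marker, was higher in D at 2.38 CPM against 0.341 in C. CD68 had 481 CPM in D and 486 in C. In the epithelial list KRT18 had 71.4 CPM in D and 38.4 in C and ESRP1 had 22.6 in D and 1.35 in C. CDH1 had 1.65 in D and 0.451 in C, while KRT8 had 42.2 in D and 43.8 in C. PTPRC and EPCAM, defining markers of blood and epithelial cells, had at most 8 and 7 counts in any library. The part of these lists in the results below was not tested.

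The transport machinery did not move as a block. A few of its genes changed clearly, in opposite directions, while most did not pass the test. RAE1, an mRNA export factor of the pore, the tRNA exportin gene XPOT, and the importin genes IPO4 and KPNA4 were higher in D, and KPNA2, the most abundant importin alpha gene, was lower. Calls rest on edgeR's quasi-likelihood test, with p adjusted by Benjamini-Hochberg over all 12682 tested genes and a threshold of 0.05. By that rule 14 of the 54 members were higher in D (25.9%), against 26.8% of all tested genes, and 4 were lower (7.41%), against 27.7% of all tested genes. The share called higher was thus near that of all genes, and the 14 include NUP210. Among the calls, 2 members were at least 2-fold higher, RAE1 and NUP210, of which NUP210 passed the filter only through D, and 1 was at least 2-fold lower, KPNA2, where 8.37% and 10.1% of all tested genes passed the same rule. The D libraries all lay above the C libraries for 18 members (33.3%, against 30.6% of all tested genes) and all below them for 9 (16.7%, against 32.1%). In bulk RNA, fewer cells that express a gene and less RNA of that gene per cell cannot be told apart.

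The counts depend on single libraries and on scaling. Without 1 library at a time, 8 to 21 members were called higher and 3 to 8 lower. The extremes were 8 higher without C replicate 1 (14.8%, against 20.4% of all tested genes) and 21 higher without D replicate 3 (38.9%, against 30.1%). Also, 9 were higher without C replicate 2 (16.7%, against 21.5%) and 8 lower without D replicate 2 (14.8%, against 30.3%). With library size only, 8 were higher (14.8%, against 20.4% of all tested genes) and 10 lower (18.5%, against 35.1%). That scaling puts the median log2 fold change over all tested genes at −0.17, while TMM factors put it at −0.02. Measured against the median of all tested genes, the median of the members was 0.13 under both scalings, 0.06 with no filter on low counts and −0.05 on log2(FPKM + 1) without a filter. It was 0.07 without C replicate 2, −0.0025 without D replicate 2 and 0.21 without D replicate 3, so leaving out D replicate 2 alone removed the offset. Of the 18 called members, 11 were called in the same direction under every alternative in which they were tested: RAE1, NUP42, NUP85, NUP88, NUP210, KPNA2, KPNA3, KPNA4, IPO4, XPOT and XPO6.

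**Figure D1:**
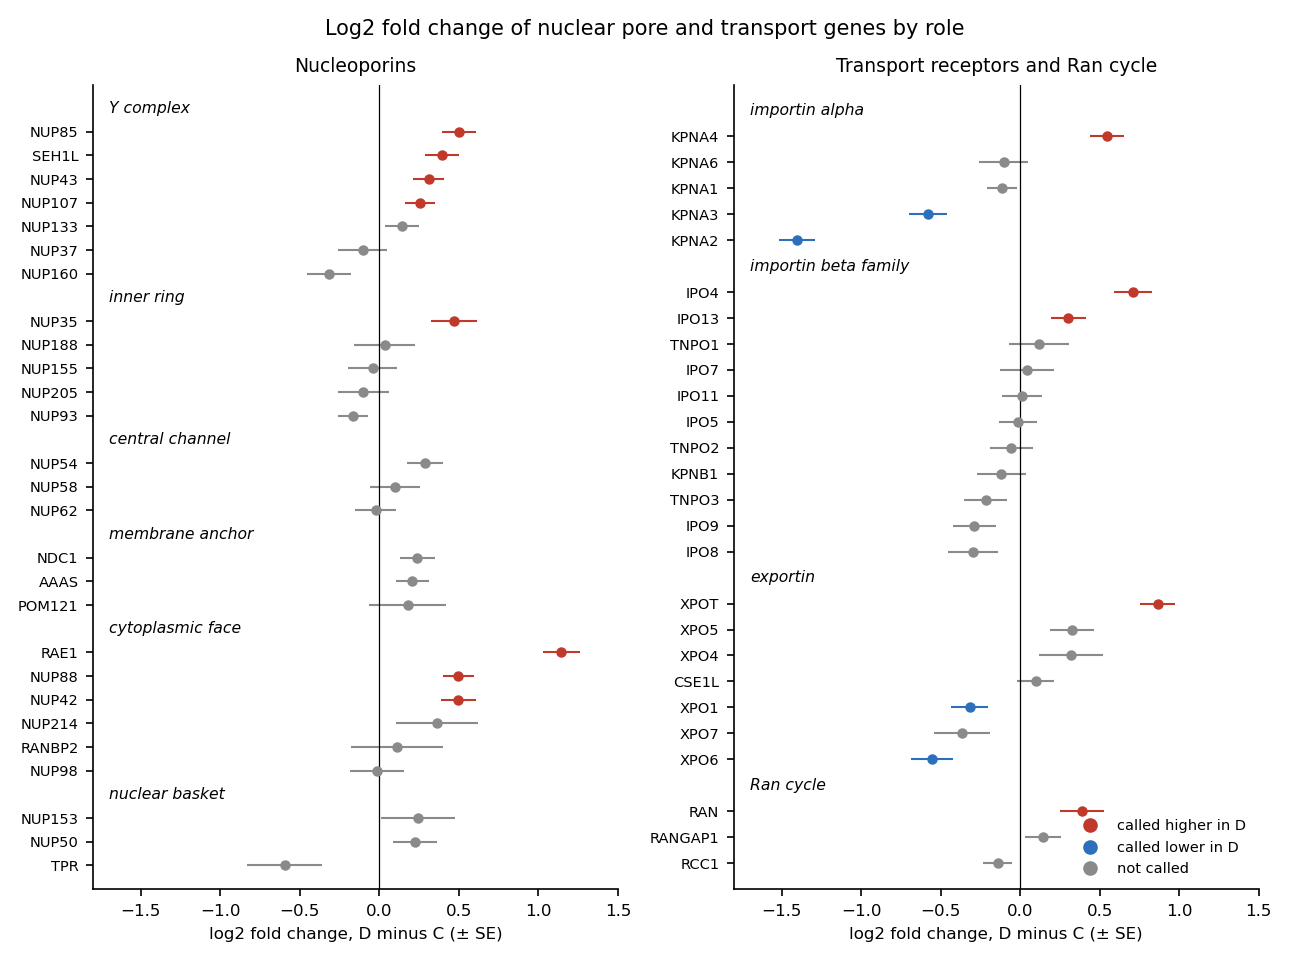
Log2 fold change (D minus C, edgeR) of 53 members by role, with bars of ± 1 SE; red points were called higher in D, blue points lower and grey points were not called. RAE1 lies farthest to the right at 1.14 and KPNA2 farthest to the left at −1.40; NUP210 is left out because it had 9 counts in all over the 3 C libraries.

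Among the nucleoporins 9 of 28, NUP210 included, were called higher in D (32.1%, against 26.8% of all tested genes) and 0 lower in edgeR (against 27.7%). Their median log2 fold change was 0.21, or 0.24 above the median of all tested genes. That offset was 0.12 without D replicate 2, 0.30 without D replicate 3 and 0.06 on log2(FPKM + 1) without a filter. At an unadjusted p under 0.05, 10 were higher and 1, TPR, was lower, against 3732 and 3858 of all 12682 tested genes. DESeq2 called 10 higher (35.7%, against 28.4% of all tested genes) and 1 lower (3.57%, against 26.8%). Limma-voom called 9 higher (32.1%, against 26.3%) and 1 lower (3.57%, against 28.3%). The D libraries all lay above the C libraries for 13 nucleoporins (46.4%, against 30.6% of all tested genes) and all below for 2 (7.14%, against 32.1%). Without D replicate 3, 14 were higher (50.0%, against 30.1% of all tested genes) and 1 lower (3.57%, against 29.9%). Without D replicate 2, 10 were higher (35.7%, against 30.4%) and 2 lower (7.14%, against 30.3%). Without C replicate 1, 5 were higher (17.9%, against 20.4%) and 0 lower (against 21.6%). With library size only 5 were higher (17.9%, against 20.4%) and 3 lower (10.7%, against 35.1%). With length trends removed 15 were higher (53.6%, against 32.9%) and 1 lower (3.57%, against 30.4%).

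The Y complex forms the outer rings of the pore scaffold. Of its 7 genes among the members, 4 were called higher (57.1%, against 26.8% of all tested genes) and 0 lower in edgeR (against 27.7%). At an unadjusted p under 0.05 the numbers for these 7 were also 4 and 0. The complex also holds SEC13 and AHCTF1, which are not members. AHCTF1 was called lower (−0.66 ± 0.19) and SEC13 was not called (0.04 ± 0.12). NUP85 had normalized CPM of 102, 94.7 and 108 in D, against 65.5, 74.1 and 76.0 in C. The lowest D library was above the highest C library, and the log2 fold change was 0.50 ± 0.11 (SE; adjusted p = 0.00433, edgeR). SEH1L, which also belongs to a complex that signals amino acid supply to mTORC1, had 108, 111 and 127 CPM in D and 82.0, 90.1 and 91.1 in C (log2 fold change 0.40 ± 0.11). NUP43 and NUP107, a peripheral and a core subunit, rose by less, with log2 fold changes of 0.31 ± 0.10 and 0.25 ± 0.09. The call of SEH1L was lost without C replicate 1 (0.34). Those of NUP43 and NUP107 were lost without C replicate 1 (0.28 and 0.22), C replicate 2 (0.32 and 0.28), C replicate 3 (0.32 and 0.25) or D replicate 1 (0.30 and 0.29). The calls of SEH1L, NUP43 and NUP107 were also lost with library size only, with a replicate block and on filtered log2 FPKM. NUP85 kept its call under these settings. NUP133 (0.14 ± 0.10), NUP37 (−0.10 ± 0.15) and NUP160 (−0.32 ± 0.14) were not called. NUP160 had 73.7, 85.4 and 59.2 CPM in D, against 89.1, 86.4 and 96.3 in C. All 3 D libraries were below the C libraries although D replicate 2 nearly reached them, and NUP160 passed without that library (−0.41, adjusted p = 0.0173, edgeR). It also passed with library size only and on log2 FPKM, while NUP133 passed as higher with length trends removed.

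The inner ring, the scaffold layer next to the membrane, had 1 of 5 genes called higher (20%, against 26.8% of all tested genes), NUP35. This membrane-binding adaptor had 26.1, 26.1 and 35.2 CPM in D and 19.7, 21.2 and 22.2 CPM in C. The groups did not overlap, with D replicate 3 well above the other D libraries, and the log2 fold change was 0.47 ± 0.15 (adjusted p = 0.0244, edgeR). It was not called without C replicate 1 (0.42), C replicate 2 (0.47) or C replicate 3 (0.51), with library size only or on log2 FPKM. NUP205, a large scaffold protein gene with the highest level per length of the inner ring, had 44.3 ± 10.7 FPKM in D and 52.6 ± 5.26 in C (SD, n = 3). FPKM is the library's count scaled by gene length and by library total. Its CPM values of 296, 351 and 227 in D spanned those of 296, 295 and 347 in C, and the log2 fold change was −0.10 ± 0.16 (adjusted p = 0.621). NUP93 (−0.17 ± 0.09), NUP155 (−0.04 ± 0.16) and NUP188 (0.03 ± 0.19) were not called either, while NUP93 had all 3 D libraries below the C libraries. NUP93 was called lower with library size only and on log2 FPKM.

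In the central channel none of the 3 genes was called by edgeR, against 54.4% of all tested genes in either direction. At an unadjusted p under 0.05 only NUP54 was higher. NUP54 had 37.8, 44.5 and 44.4 CPM in D, against 33.8, 35.3 and 34.9 in C. The groups did not overlap, and the log2 fold change of 0.29 ± 0.11 lay just outside the threshold (adjusted p = 0.0547, edgeR). It passed in DESeq2 (0.31), with RLE factors (0.31), with length trends removed (0.37) and without D replicate 1 (0.36). NUP62 and NUP58, with which NUP54 forms the channel's central trimer, had log2 fold changes of −0.02 ± 0.13 and 0.10 ± 0.16. NUP62 had 73.7, 68.7 and 59.6 CPM in D and 60.9, 67.2 and 77.3 in C, with fully overlapping groups. At 18.9 ± 2.50 FPKM in D and 21.3 ± 2.64 in C it had the highest level of the trio.

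Of the 4 membrane-bound or membrane-anchored nucleoporins, 1 was called higher (25%, against 26.8% of all tested genes), NUP210. NUP210 spans the pore membrane and is known to be expressed in some cell types and not in others. It had 51, 65 and 43 counts in D, against 3, 1 and 5 in C. Summed over each group and scaled by library, the D level was 20.2 times the C level (95% Clopper-Pearson interval of the ratio 10.4 to 44.9, counting error only). The ratio describes a gene that entered the fit only through its D counts, so its call is no test. Its level in D remained low for a pore component, at 0.259 ± 0.0494 FPKM in D and 0.0144 ± 0.00952 in C, while the other membrane-anchored members had between 6.68 and 46.9 FPKM in D and between 6.52 and 45.2 in C.

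AAAS, the ALADIN gene, whose product is held at the pore by NDC1, had 93.4, 81.6 and 94.9 CPM in D, against 78.4, 80.7 and 74.7 in C. The groups did not overlap, but the log2 fold change of 0.21 ± 0.10 did not pass (adjusted p = 0.12), except without D replicate 2 (0.31). NDC1 (0.24 ± 0.11) passed only without D replicate 3 (0.32) or with length trends removed (0.31). POM121 (0.18 ± 0.24) passed under the same settings (0.44 and 0.39). POM121 has a near-identical copy, POM121C, so the division of reads between them is uncertain, and POM121C was not called either (0.11 ± 0.21, adjusted p = 0.689).

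On the cytoplasmic face 3 of 6 genes were called higher (50%, against 26.8% of all tested genes) and 0 lower in edgeR (against 27.7%). At an unadjusted p under 0.05 these numbers were also 3 and 0. RAE1, which binds NUP98 and serves mRNA export and spindle assembly, had 189, 174 and 220 CPM in D, against 83.0, 92.1 and 88.4 in C. Every D library exceeded the highest C library by a wide margin, and the 2.21-fold difference (log2 fold change 1.14 ± 0.12, adjusted p = 0.000101, edgeR) had a range of 0.97 to 1.25 on the log2 scale over all 17 alternatives. Per length RAE1 was the most abundant gene on this face, at 72.1 ± 6.52 FPKM in D and 36.3 ± 1.86 in C (SD, n = 3). It made up 12.9% ± 2.37 of the summed nucleoporin FPKM in D and 6.79% ± 0.378 in C.

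NUP88, the partner of NUP214, had 110, 104 and 110 CPM in D, against 70.7, 78.8 and 80.2 in C (log2 fold change 0.50 ± 0.10, adjusted p = 0.00298). NUP42, which acts with GLE1 in the release of exported mRNA, had 13.3, 12.9 and 12.7 CPM in D and 9.53, 8.92 and 9.09 in C (0.50 ± 0.11, adjusted p = 0.00536). In both genes the D libraries were tightly grouped and did not overlap the C libraries. Their partners had wider spreads. NUP214, a docking site for mRNA export, had 116, 139 and 63.1 CPM in D and 79.7, 71.2 and 97.0 in C. D replicate 3 lay below all C libraries and the other D libraries above them, and the log2 fold change of 0.36 ± 0.26 passed with length trends removed (0.53) or when D replicate 3 was left out (0.64). RANBP2, a SUMO ligase that forms the cytoplasmic filaments, had 64.5, 120 and 49.9 CPM in D and 70.0, 61.6 and 85.3 in C (0.11 ± 0.29). It shares sequence with the RGPD genes, so its reads may be divided among copies. NUP98, which also encodes a Y complex scaffold protein by cleavage of its product, did not pass the test (−0.02 ± 0.17).

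The 3 genes of the nuclear basket overlapped between the groups. Of them edgeR called 0, against 54.4% of all tested genes in either direction, with 1, TPR, lower at an unadjusted p under 0.05. TPR, the coiled-coil protein that forms the basket, had 53.6, 87.6 and 44.4 CPM in D, against 88.6, 83.8 and 108 in C. In D replicates 1 and 3 it was below every C library, and D replicate 2 lay within the C range. Its log2 fold change was −0.60 ± 0.23 (adjusted p = 0.059, edgeR). It was called lower in 9 of the 17 alternatives, among them DESeq2 (−0.57), limma-voom (−0.65), without D replicate 2 (−0.90) and without D replicate 3 (−0.40). NUP153, an anchor of the basket, had 132, 182 and 87.9 CPM in D and 104, 106 and 129 in C. Its D libraries lay on both sides of the C range, and its log2 fold change of 0.24 ± 0.23 became 0.48 and was called without D replicate 3, but was −0.01 without D replicate 2. NUP50, a cofactor of importin alpha release, had 0.22 ± 0.14 and passed without D replicate 3 (0.33).

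The spread among D libraries followed gene length in these long genes. The slope of log2 CPM on log2 gene length over the 54 members, with each gene centred on its mean over the D libraries, was 0.0037, 0.23 and −0.23 per doubling of length in D replicates 1, 2 and 3. Over all tested genes it was 0.013, 0.17 and −0.18. The median length of the members was 5505 bp, against 4081.5 bp for all tested genes. For 44 of 54 members (81.5%) the SD of log2 CPM was larger over the D libraries than over the C libraries, as for 79.3% of all tested genes. The median log2 difference of the nucleoporins from the C mean was 0.17, 0.35 and 0.03 in D replicates 1, 2 and 3, that of the importins −0.05, 0.11 and −0.32, and that of the exportins −0.10, 0.23 and −0.13. The cause of the length trend was not tested.

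**Figure D2:**
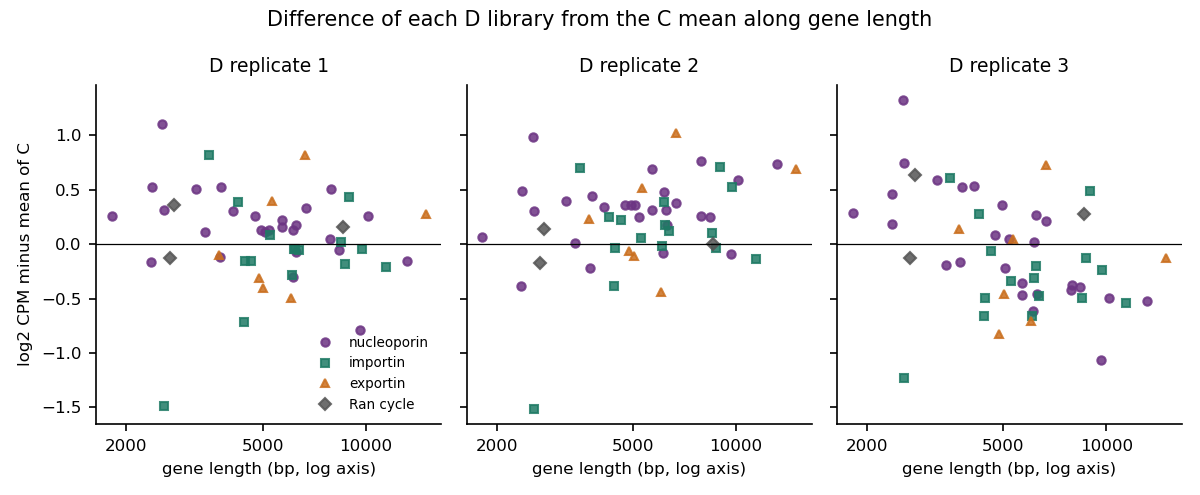
Log2 CPM of 53 members in each D library minus the mean of the 3 C libraries, against gene length on a log axis, with nucleoporins, importins, exportins and Ran cycle genes as separate symbols. Long genes lie higher in D replicate 2 (slope 0.23 around the D mean) and lower in D replicate 3 (slope −0.23); NUP210 is left out.

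The importins showed the largest single fall. Of 16 importins 3 were called higher (18.8%, against 26.8% of all tested genes) and 2 lower (12.5%, against 27.7%), with a median log2 fold change of −0.08. The median turned to 0.07 without D replicate 3 and to 0.09 with length trends removed, and was −0.13 without D replicate 2 and −0.23 with library size only. The 5 importin alpha genes, whose proteins recognise the classical nuclear localisation signal, moved in both directions. Of them 1 was called higher (20%, against 26.8% of all tested genes) and 2 lower (40%, against 27.7%). KPNA2, known for high levels in proliferating and tumour cells, had 276, 272 and 331 CPM in D, against 778, 800 and 746 in C. The highest D library lay far below the lowest C library, the log2 fold change was −1.40 ± 0.11 (adjusted p = 3.73e-05, edgeR), and its range over the alternatives was −1.56 to −1.32. KPNA2 has processed pseudogenes that can share its reads. KPNA3 fell with it, with 40.7, 51.4 and 42.2 CPM in D and 64.8, 65.1 and 70.9 in C (−0.58 ± 0.12, adjusted p = 0.00369).

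KPNA4, the closest relative of KPNA3 and like it known for importing NF-kB subunits, went the other way. It had 156, 188 and 161 CPM in D, against 112, 117 and 116 in C, without overlap (0.55 ± 0.11, adjusted p = 0.00262). KPNA1 and KPNA6 were not called (−0.11 ± 0.09 and −0.10 ± 0.15). KPNA1 had all 3 D libraries below the C libraries, by a small margin. It was called lower with library size only and on log2 FPKM, while its sign turned with length trends removed (0.12).

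The composition of the importin alpha genes differed accordingly between the groups. Their summed FPKM was 156, 165 and 165 in D, against 380, 387 and 370 in C. KPNA2 made up 65.8%, 62.2% and 71.2% of that sum in D and 83.9%, 84.4% and 82.9% in C. KPNA4 made up 10.7%, 12.4% and 9.97% in D and 3.49%, 3.54% and 3.71% in C. KPNA2 was thus the most abundant importin alpha gene in all 6 libraries, at 108 ± 8.59 FPKM in D and 317 ± 9.95 in C. The order of the others differed, since KPNA4 was second in every D library, at 17.9 ± 2.21 FPKM, and last in every C library, at 13.6 ± 0.283. In C the neighbours KPNA1 and KPNA4 differed by little, with KPNA1 at 14.4 ± 0.11 FPKM. These shares describe messenger RNA per gene length and were not tested.

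**Figure D3:**
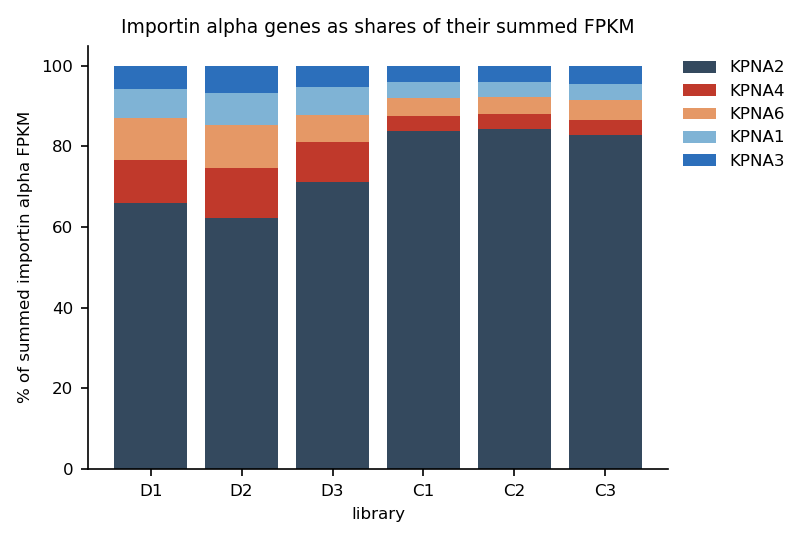
Share (%) of each of 5 importin alpha genes in their summed FPKM, with the 3 D libraries to the left of the 3 C libraries. KPNA2 holds 62.2% to 71.2% in D and 82.9% to 84.4% in C, and KPNA4 holds 9.97% to 12.4% in D and 3.49% to 3.71% in C.

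In the importin beta family, the carriers themselves, edgeR called 2 of 11 genes higher (18.2%, against 26.8% of all tested genes). It called 0 lower (against 27.7%), and the numbers were the same at an unadjusted p under 0.05. IPO4, which imports histones and ribosomal proteins, had 93.2, 86.0 and 80.5 CPM in D, against 49.5, 49.5 and 60.0 in C. The groups were well apart (0.71 ± 0.12, adjusted p = 0.00124, edgeR). IPO13, which works in both directions, had 83.0, 75.0 and 76.8 CPM in D and 57.4, 62.8 and 70.1 in C (0.30 ± 0.11, adjusted p = 0.0456), but not when fitted without C replicate 1 (0.23), C replicate 2 (0.29) or D replicate 1 (0.26).

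KPNB1, importin beta itself and the partner of importin alpha, had the highest level of the family, at 84.0 ± 19.3 FPKM in D and 101 ± 8.09 in C (SD, n = 3). Its CPM was 587, 660 and 438 in D and 583, 581 and 663 in C, so that D replicate 3 was lowest and the other D libraries lay within the C range, and it was not called (−0.12 ± 0.16, adjusted p = 0.546). The sum of importin alpha FPKM was 156 to 165 in D and 370 to 387 in C, while that of the importin beta family was 267 to 401 in D and 352 to 391 in C. The carriers of ribosomal proteins and other cargo IPO5 (−0.01 ± 0.12), IPO7 (0.04 ± 0.17) and IPO9 (−0.29 ± 0.14) did not pass, nor did TNPO1 (0.12 ± 0.19) and TNPO2 (−0.06 ± 0.14), which carry RNA-binding proteins, or TNPO3 (−0.22 ± 0.14), which carries splicing factors. IPO11 (0.01 ± 0.13) and IPO8 (−0.30 ± 0.16) were not called, and IPO8 passed without D replicate 2 (−0.42). IPO8 and IPO9 also passed as lower on filtered log2 FPKM, and IPO9 with library size only. TNPO1 passed as higher with length trends removed.

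The exportins went both ways, with 1 of 7 called higher (14.3%, against 26.8% of all tested genes) and 2 lower (28.6%, against 27.7%). Their median log2 fold change was 0.10, but −0.06 with library size only and −0.06 on log2(FPKM + 1). It was 0.06 without C replicate 1 or D replicate 2 and 0.19 without D replicate 1. XPOT, the exportin of transfer RNA, had 594, 685 and 558 CPM in D, against 341, 330 and 338 in C. The lowest D library was far above the highest C library (0.86 ± 0.11, a 1.82-fold difference, adjusted p = 0.000288, edgeR), and the range over the alternatives was 0.70 to 1.02. XPOT made up 30.5%, 30.0% and 30.1% of the summed exportin FPKM in D, against 19.0%, 17.9% and 16.8% in C. It stood at 87.4 ± 11.7 FPKM in D and 53.2 ± 1.01 in C, beside 78.5 ± 9.37 in D and 81.6 ± 5.83 in C for CSE1L. CSE1L, which returns importin alpha to the cytoplasm, had 269, 338 and 318 CPM in D and 274, 280 and 310 in C and was not called (0.10 ± 0.12, adjusted p = 0.506).

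XPO6, which exports actin bound to profilin, was the exportin with the lowest p among the falls. It had 206, 213 and 178 CPM in D, against 251, 291 and 334 in C, without overlap (−0.55 ± 0.13, adjusted p = 0.00725, edgeR). XPO1, the main exportin for proteins with leucine-rich export signals and the target of leptomycin B, had 177, 217 and 170 CPM in D and 231, 236 and 237 in C. All D libraries were below the C libraries, and the log2 fold change was −0.32 ± 0.12 (adjusted p = 0.0438, edgeR). This call was lost without D replicate 1 (−0.27), D replicate 3 (−0.24), C replicate 1 (−0.33), C replicate 2 (−0.32) or C replicate 3 (−0.31). It was also lost with RLE factors (−0.29) and with a replicate block. XPO5, the exportin of microRNA precursors (0.33 ± 0.14), and XPO4, which exports EIF5A (0.32 ± 0.20), were called only under some alternatives, both of them without D replicate 3 (0.46 and 0.51). XPO7 (−0.37 ± 0.18) was called lower without D replicate 2 (−0.51) and on filtered log2 FPKM. Without D replicate 3, 3 exportins were called higher (42.9%, against 30.1% of all tested genes) and 1 lower (14.3%, against 29.9%). Without D replicate 2, 1 was higher (14.3%, against 30.4%) and 3 lower (42.9%, against 30.3%).

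**Figure D4:**
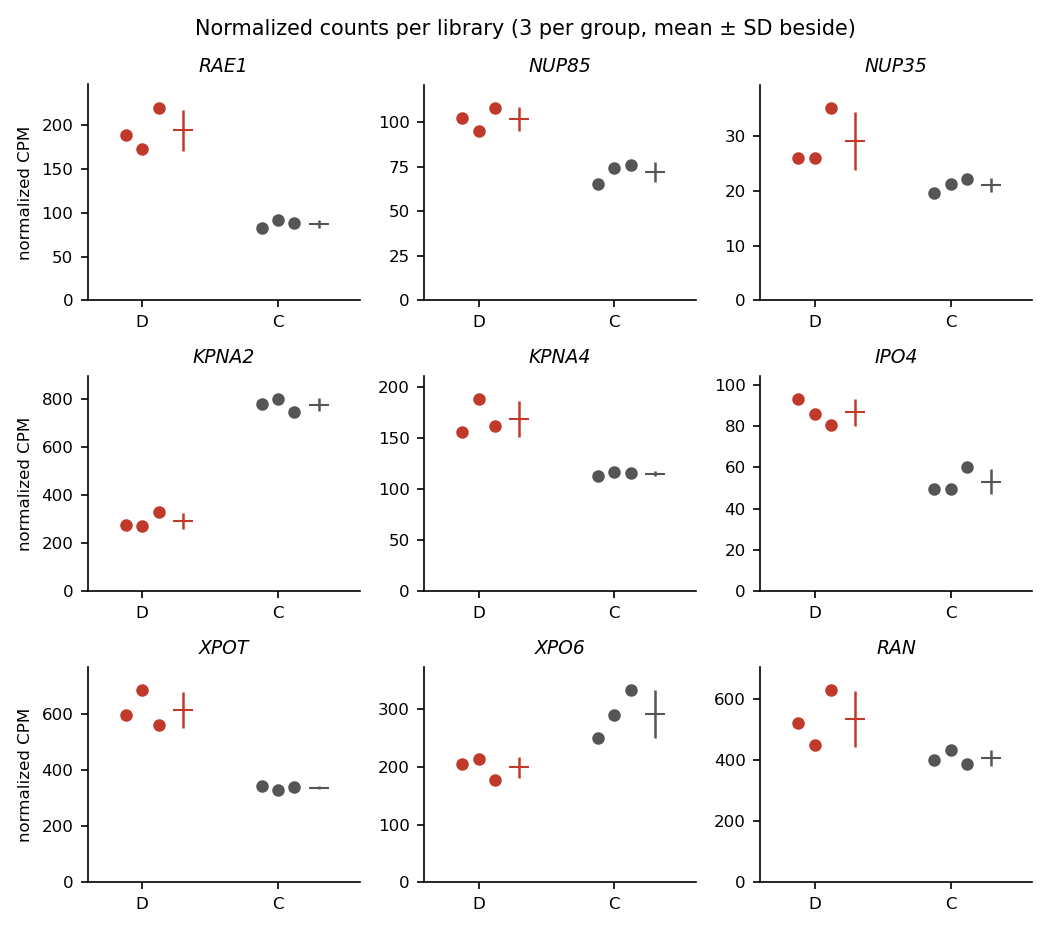
Normalized CPM of 9 members in each library, with D left of C, points for libraries and the mean ± SD of 3 libraries beside them, on linear axes that start at 0. The D points lie above all C points for RAE1, NUP85, NUP35, KPNA4, IPO4, XPOT and RAN and below all of them for KPNA2 and XPO6.

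Of the 3 genes of the Ran cycle, edgeR called 1 higher, RAN (33.3%, against 26.8% of all tested genes), and 0 lower (against 27.7%). The same held at an unadjusted p under 0.05. The GTPase gene RAN had 519, 448 and 629 CPM in D, against 399, 434 and 385 in C. The groups came close to each other, with D replicate 2 just above C replicate 2, and the log2 fold change was 0.39 ± 0.14 (adjusted p = 0.0389, edgeR). The call was lost without C replicate 1 (0.37), C replicate 2 (0.44), C replicate 3 (0.35) or D replicate 1 (0.41). It was also lost with library size only (0.23), with a replicate block and on log2 FPKM. RAN also has processed pseudogenes. RANGAP1, which activates GTP hydrolysis by RAN in the cytoplasm, had 479, 430 and 521 CPM in D and 399, 433 and 461 in C, with overlap (0.15 ± 0.11, adjusted p = 0.303). RCC1, the chromatin-bound exchange factor that loads RAN with GTP, had 161, 156 and 162 CPM in D and 169, 180 and 180 in C. Its D libraries were all slightly below the C libraries, and it was not called (−0.14 ± 0.09, adjusted p = 0.215, edgeR). RCC1 was called lower with library size only and on log2 FPKM. At 182 ± 25.6 FPKM in D and 155 ± 9.03 in C, RAN had the highest level of the members after KPNA2 in C, and the highest of all in D.

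Genes around the pore that are not members were read from 4 lists. Of 23 genes of mRNA export, 9 were called higher (39.1%, against 26.8% of all tested genes) and 1 lower (4.35%, against 27.7%), with a median log2 fold change of 0.26. NXF1, the main mRNA export receptor, had 110 CPM in D and 52.7 in C (mean of 3 libraries each; log2 fold change 1.06 ± 0.11, adjusted p = 9.67e-05). DDX39A, an RNA helicase of export (1.17 ± 0.15), and THOC5, a subunit of the THO complex (1.01 ± 0.11), also rose at least 2-fold and are named after their values were seen. THOC6, another THO subunit, was the gene called lower (−0.34 ± 0.12). That call was lost without C replicate 1 (−0.34), C replicate 2 (−0.33), C replicate 3 (−0.36), D replicate 1 (−0.35) or D replicate 2 (−0.21).

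Of 7 tested further nucleoporins 1 was higher, TMEM33 (0.42 ± 0.10), and 1 lower, AHCTF1 (−0.66 ± 0.19). Each is 14.3%, against 26.8% and 27.7% of all tested genes. AHCTF1, the Y complex gene whose product starts pore assembly on chromatin, was not called without C replicate 1 (−0.68), C replicate 3 (−0.61) or D replicate 1 (−0.61). Of 14 tested further receptors and Ran factors, edgeR called 0 higher (against 26.8% of all tested genes), also at an unadjusted p under 0.05. It called 2 lower (14.3%, against 27.7%). These were RANBP3L, a nuclear export factor gene (−1.86 ± 0.21), and RANBP6, an importin relative (−1.06 ± 0.17). HIKESHI, known to import HSP70 during heat shock, had 44.2 CPM in D and 38.1 in C and was not called (0.21 ± 0.14, adjusted p = 0.234).

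Of 18 genes of the nuclear lamina and envelope 4 were higher (22.2%) and 5 lower (27.8%), shares near those of all tested genes. LMNB1, a B-type lamin, had 12.2 CPM in D and 55.7 in C (−2.18 ± 0.12, adjusted p = 8.75e-06). LMNB2 (−0.76), LBR (−0.59), TMPO (−0.93) and SUN2 (−0.85), named after their values were seen, were the other falls. ZMPSTE24, the protease that matures prelamin A, was the rise with the lowest p (0.98 ± 0.10). SYNE1 (0.99), TOR1A (0.95) and TOR1AIP2 (0.48), also named after their values were seen, were the other rises. LMNA, the A-type lamin gene, did not pass (−0.01 ± 0.09).

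**Figure D5:**
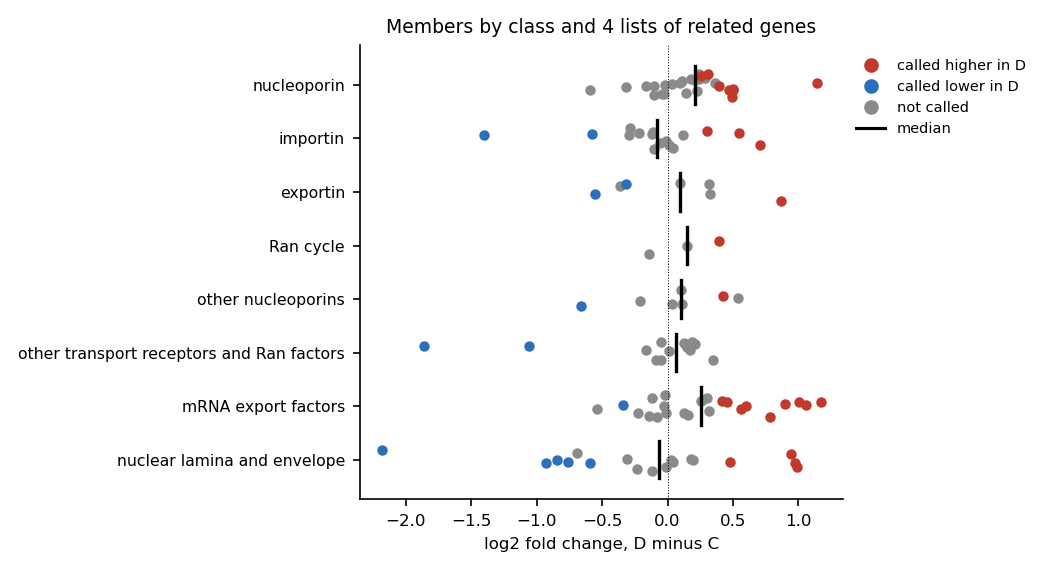
Log2 fold change (D minus C, edgeR) of the members by class and of the genes of 4 related lists, with vertical bars at the medians and colours for calls; points are spread vertically to separate them. The nucleoporins have their median at 0.21 and the mRNA export genes at 0.26, while the importins (−0.08) and the lamina genes (−0.07) lie near 0; NUP210 is left out of the plot.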

How the data were processed

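Messenger RNA libraries were made with a SMARTER kit, per the labels' protocols. The authors deposited, for each of 6 libraries, a table of raw counts and FPKM per gene. The builds GRCm38 and mm10 stand in the submitters' processing notes, while aligner, counter and strandedness were not given in the sources used here. Without strandedness, reads of overlapping and antisense genes cannot be told apart. The deposited FPKM equalled the count divided by the library total and 1 gene length for 17144 of 17144 genes (relative tolerance 0.001). It was used for levels, sums and shares and in the limma-trend alternatives. It carries no TMM factor (0.915 to 0.971 in D, 1.05 to 1.06 in C). FPKM in D relative to C is therefore lower than normalized CPM.

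The deposited counts entered edgeR 4.0.16 under R 4.3.3 (TMM factors, filterByExpr, quasi-likelihood F test, D against C, 3 libraries each). Benjamini-Hochberg adjustment ran over 12682 tested genes, with calls at 0.05. The SE is the size of the log2 fold change divided by the square root of F. The fit was also run on simulated counts, drawn from the C means without a length trend. That run cannot tell how the fit behaves under the length trends of the D libraries. Alternatives used DESeq2 1.42.0, limma 3.58.1 (voom on counts, limma-trend on log2 FPKM with a pseudocount of 1 or 0.1), other scalings and filters, a replicate block, removal of length trends by lowess (span 0.4) and each library left out. Members and lists were chosen with earlier results of these data known. Library values are given for called members with at least a 2-fold change, and in each role for the lowest p in each direction and the highest FPKM, and for further members chosen after their values were seen. From the 4 related lists the called gene with the lowest p in each direction is named. A count of 3 corresponds to 0.139 to 0.170 CPM. Intervals cover counting error only.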

Additional observations from a re-analysis of the deposited data

How the results depend on the processing

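All 18 called members kept their direction under the 17 alternatives in which they were tested (NUP210 was not tested in the filtered FPKM fits), and 7 lost the call in at least 1: NUP35, NUP43, NUP107, SEH1L, IPO13, XPO1 and RAN. Of the 36 members not called, 19 were called in at least 1 alternative. For genes at a few counts, as NUP210 in C, depth limits the size of the difference. The cause of the changes below was not tested, beyond the fewer libraries of the fits that leave one out.

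Counts of called genes are given as higher and lower in D. With library size only they were 8 and 10 for the members, 5 and 3 for the nucleoporins and 4 lower importins. Calls over all genes were then 36.8% higher, against 49.2% with TMM factors. Of all tested genes 20.4% were then higher and 35.1% lower. Limma-trend on log2(FPKM + 1) and on log2(FPKM + 0.1) each gave 7 and 12 members, 4 and 3 nucleoporins and 5 lower importins. Over all genes 2213 and 2209 were higher (21% and 20.9%), and 37% and 36.7% were lower. Without a filter, log2(FPKM + 1) gave 9 and 8 members and 2 lower nucleoporins, with 15.7% of all genes higher and 25.9% lower. With length trends removed, 23 members were higher, as were 15 nucleoporins and 3 exportins, and 1 nucleoporin was lower. Of all tested genes 32.9% were then higher and 30.4% lower. DESeq2, limma-voom and no filter on low counts each gave 1 lower nucleoporin, with 26.8%, 28.3% and 21.2% of all tested genes lower. DESeq2 gave 2 higher exportins (28.4% of all tested genes higher), and RLE factors gave 1 lower exportin (26.5% lower).

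Leaving out 1 library at a time, 2627 to 3888 of all tested genes were higher (20.4% to 30.4%). Lower were 2780 to 3879 of them (21.6% to 30.3%). These fits gave 8 to 21 and 3 to 8 members and 5 to 14 and 0 to 2 nucleoporins. They gave 2 to 3 and 2 to 3 importins, and 1 to 3 and 1 to 3 exportins.

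Same-numbered libraries did not deviate together (correlations 0.0084, −0.40 and −0.36), so the numbers were not taken to pair them, and no D library correlated best with the C library of its own number. With a replicate block 9 members were higher and 3 lower, with 21.2% of all tested genes higher and 23.5% lower. These were 6 nucleoporins higher, 2 importins higher and 2 lower, and 1 exportin higher and 1 lower.

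The sign of uncalled changes turned as follows (log2 fold change). With library size only it was −0.048 for NUP58, −0.0072 for NUP133, −0.11 for NUP188, −0.032 for RANBP2, −0.11 for IPO7, −0.14 for IPO11, −0.026 for TNPO1, −0.055 for CSE1L and −0.0094 for RANGAP1. On log2(FPKM + 1), filtered or not, it was −0.062 for NUP58, −0.010 for NUP133, −0.14 for NUP188, −0.021 for POM121, −0.10 for RANBP2, −0.14 for IPO7, −0.13 for IPO11, −0.064 for TNPO1, −0.059 for CSE1L and −0.0088 for RANGAP1. On log2(FPKM + 0.1) it was −0.068 for NUP58, −0.012 for NUP133, −0.15 for NUP188, −0.033 for POM121, −0.13 for RANBP2, −0.14 for IPO7, −0.15 for IPO11, −0.067 for TNPO1, −0.059 for CSE1L and −0.0090 for RANGAP1. DESeq2 and RLE factors each gave 0.0045 for NUP62, 0.0098 for NUP98 and 0.014 for IPO5, and no filter on low counts gave −0.0015 for IPO11. With length trends removed it was 0.17 for NUP98, 0.16 for NUP155, 0.029 for NUP205, 0.12 for KPNA1, 0.10 for KPNA6, 0.017 for KPNB1, 0.12 for IPO5 and 0.036 for TNPO2. With 1 library left out the value ran from −0.26 to 0.054 for NUP37, −0.014 to 0.25 for NUP58, −0.11 to 0.070 for NUP62, −0.14 to 0.16 for NUP98, −0.010 to 0.48 for NUP153, −0.18 to 0.12 for NUP155, −0.095 to 0.24 for NUP188, −0.22 to 0.062 for NUP205 and −0.043 to 0.44 for POM121. It ran from −0.30 to 0.36 for RANBP2, −0.18 to 0.072 for KPNA6, −0.22 to 0.045 for KPNB1, −0.084 to 0.083 for IPO5, −0.14 to 0.20 for IPO7, −0.076 to 0.089 for IPO11, −0.10 to 0.28 for TNPO1 and −0.13 to 0.080 for TNPO2.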
